A study of Homo sapiens with 6 samples.

Results

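Collagen chains are the polypeptides that the genes named COL, a type number, A and a chain number encode, and they were followed here in human RPE1 cells depleted of OFD1. The chains were taken by name from the deposited expression table, as protein-coding genes on the primary chromosomes whose symbol has that form. This gave 44 chains among 19962 protein-coding genes and 67130 listed genes. Of the 44, 36 had a value above 0 in at least 1 sample, 8 were at 0 in all 6 samples, and 14 reached a mean of at least 1 FPKM. FPKM is the number of sequenced fragments per kilobase of transcript and per fixed number of mapped fragments. A further 6 lines for COL11A2 on alternative contigs were left out.

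RPE1 is a line of retinal pigment epithelial cells immortalized with hTERT. All 6 samples came from the line labelled hTERT-RPE1-TOShOFD1, into which lentivirus had brought a Tet-On cassette for a short hairpin RNA (shRNA) against OFD1, a protein of the centrosome and the base of the cilium. The 3 control samples (genotype label WT, no doxycycline) and the 3 OFD1-depleted samples (labelled shOFD1 or OFD1 knockdown, 200 ng/mL doxycycline) were both harvested at 72 h, in medium with 10% FBS. No sample received doxycycline without the hairpin, and a single inducible line was used. Effects of the drug, of the OFD1 knockdown and of the hairpin on other RNAs therefore cannot be told apart. The labels give Retina as the tissue and describe the removal of retinas before RNA extraction, whereas the methods describe RNA from RPE1 cells. The labels name no batch and do not say that samples of a group were separate cultures, although the study calls its heatmap columns biological replicates. If they were not, p-values measure only the spread between these samples.

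A collagen molecule is a rope of 3 chains wound around each other, which only fits where glycine recurs at a fixed spacing along each chain, written Gly-X-Y. Fibrillar collagens form the cables of connective tissue, type IV collagen forms the sheet-like network of basement membranes, and other classes decorate fibrils, form hexagonal lattices or beaded filaments, or stay anchored in the plasma membrane. Retinal pigment epithelium rests on Bruch's membrane, which holds both basement membrane and fibrillar layers, and its cells are known to make several of these classes.

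In the canonical transcripts of GENCODE version 44, the Gly-X-Y pattern, counted in runs of at least 3 triplets, covered between 8.1% of codons in COL12A1 and 78.8% in COL4A5 among the 14 chains that reached a mean of 1 FPKM. The longest unbroken run was 338 triplets in COL1A1 and 339 in COL5A2. The pattern in COL4A1 was split into 22 runs, the longest of 40 triplets. The first 54 bases of the longest run are given here for an abundant network chain and for the 2 chains that fell, with the glycine codons in capitals. They lie on GRCh38 at chr13:110213980-110242692 (minus strand, exons 2 to 3), chr10:69935356-69936773 (plus strand, exons 32 to 33) and chr2:237357374-237357852 (minus strand, exons 22 to 23), and each span includes the intron between its exons.
COL4A1: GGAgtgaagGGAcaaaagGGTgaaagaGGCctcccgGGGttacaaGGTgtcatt
COL13A1: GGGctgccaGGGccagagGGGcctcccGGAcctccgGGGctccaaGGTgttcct
COL6A3: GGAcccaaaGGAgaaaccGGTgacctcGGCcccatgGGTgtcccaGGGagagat
In COL13A1 the pattern made up 73.4% of 728 codons, and in COL6A3, which is mostly built of globular domains, 10.4% of 3177.

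Estimated from the step between low values, taken as 1 fragment, the libraries held about 37800000 to 44500000 fragments. The estimate is approximate, because only 24.2% to 27.0% of the values examined lay within 0.05 of a whole multiple. That share was the largest over the depths tried. Mitochondrially encoded genes took 8.66% to 13.8% of summed FPKM in control against 15.6% to 19.3% in OFD1-depleted samples. Vimentin and the keratins KRT8 and KRT18 were abundant. The list of 6 epithelial genes summed to 274.6 to 292.8 FPKM in control against 309.9 to 443.3 FPKM after depletion. Most of that sum was KRT8 and KRT18, with a smaller part from KRT7. EPCAM was at 0 in every sample, CDH1 at most 0.0492 FPKM and KRT19 at most 0.211 FPKM. The list of 7 fibroblast and mesenchymal genes summed to 4314 to 4588 FPKM in control against 3719 to 3989 FPKM after depletion, most of it VIM, which lay at 4192 to 4458 FPKM and then at 3588 to 3882 FPKM. Other genes of that list went both ways, with THY1 lower (26.7 to 30.8 FPKM, then 12.6 to 17.4 FPKM) and DCN higher. Of 10 markers of differentiated pigment epithelium, MITF and OTX2 alone reached a mean of 1 FPKM, RPE65 stayed near 0 and TTR was at 0. BEST1 stood at 4.33 FPKM in OFD1-depleted replicate 2 and at most at 0.0475 FPKM in the other samples. Photoreceptor markers, which retina tissue would hold, were at 0 for 5 of 6 genes and summed to at most 0.286 FPKM in any sample. In lists for Muller glia, endothelium and leukocytes, GLUL and CD68 alone reached a mean of 1 FPKM. GLUL had 10.3 to 12.0 FPKM in control against 4.69 to 7.39 FPKM after depletion, and CD68 had 31.4 to 40.7 FPKM over all samples. The part of any of these values in the results below was not tested.

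OFD1, the target (GRCh38 chromosome X, bases 13734745 to 13769357), measured 3.34, 3.62 and 3.44 FPKM in control against 0.795, 0.763 and 1.43 FPKM after depletion. The groups did not overlap, with a log2 difference of -1.75 (standard error 0.255) and a limma adjusted p of 0.00085. In bulk RNA, fewer cells that express a gene and less RNA per cell cannot be told apart.

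RPE1 cells expressed a short list of collagens at high levels. COL4A2, COL8A1 and COL4A1 together made up 70.8% to 73.6% of the summed collagen FPKM in every sample. The sum itself was 531, 437 and 585 FPKM in control against 666, 552 and 611 FPKM after depletion, so the groups overlapped. The summed FPKM of all genes was 408302 to 414547 in control against 433262 to 493510 after depletion. Of that total, collagen took 0.130%, 0.106% and 0.141% in control against 0.150%, 0.112% and 0.141% after depletion. By class, basement membrane chains held 48.5% ± 2.60 of the collagen FPKM in control and 48.3% ± 2.52 after depletion (SD, n = 3 each). Fibrillar chains held 10.2% ± 0.741 and 13.5% ± 0.640, and the fibril-associated FACIT class held 7.76% ± 0.402 and 5.20% ± 0.515, in the same order. Transmembrane chains held 2.50% ± 0.106 and then 1.18% ± 0.262, and the beaded filament class 0.740% ± 0.0442 and then 0.304% ± 0.0501. Single chains held most of the FACIT, transmembrane and beaded filament shares. COL12A1 held 7.19% and then 4.72%, COL13A1 2.44% and then 1.13%, and COL6A3 0.535% and then 0.198%. The class shares sum to 100% within a sample, so a rise of one class lowers the others, and they were not tested.

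**Figure D1:**
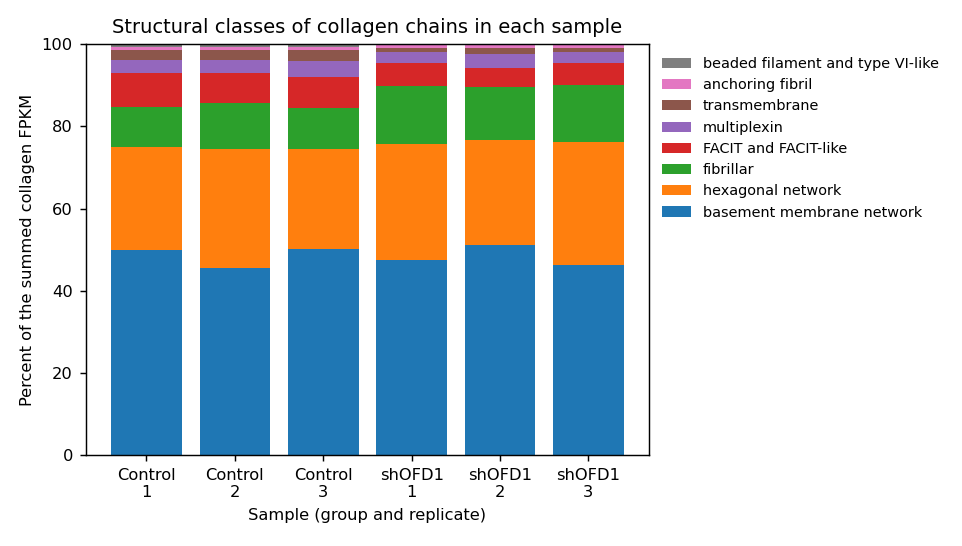
Percent of the summed collagen FPKM (vertical axis) held by each structural class of chains in each of the 6 samples (horizontal axis), as stacked bars that start at 0. Basement membrane and hexagonal network chains form most of every bar, and the fibrillar segment is 10.2% on average in control and 13.5% in OFD1-depleted samples.

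Between the groups, 3 chains passed the test. COL1A1, the main chain of type I collagen, was 2.82 times its control level after OFD1 depletion. COL13A1, a transmembrane collagen of cell-matrix adhesions, fell to 0.537 and COL6A3, a chain of the beaded filaments around cells, to 0.437 of control. The other 11 chains tested did not pass. Lower calls thus came to 2 of 14 chains, where 11.9% of all 12025 genes tested were called lower, and higher calls to 1 of 14, where 5.07% were, so with 17.0% of all genes called either way, the chains' share is near the background. Under other scalings the split of higher against lower calls over all genes moved from 610 and 1429 to 272 and 1990 (TPM) and to 1085 and 1313 (quantile normalization). The median log2 fold change was 0.12 over the 14 chains and -0.03 over all genes tested, with 10 chains above 0 and 4 below.

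**Figure D2:**
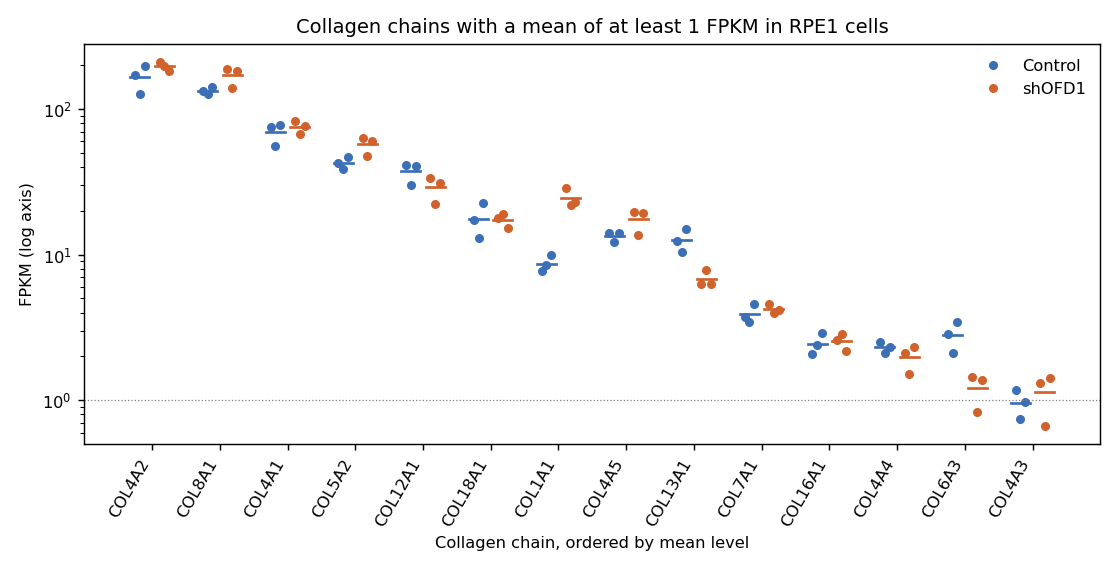
FPKM of the 14 chains with a mean of at least 1 FPKM (log axis) in each sample, in order of mean level, with control samples in blue, OFD1-depleted samples in orange and a short line at each group mean. Levels span from about 1 FPKM for COL4A3 to over 100 FPKM for COL4A2 and COL8A1, and the groups separate for COL5A2, COL1A1, COL13A1 and COL6A3.

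The values of the 2 groups did not overlap for 4 of the 14 chains, COL1A1, COL5A2, COL13A1 and COL6A3, where 36.1% of all genes tested did not overlap. An exact permutation test of 3 samples against 3 cannot give a two-sided p below 0.1, and it gave 0.1 for each of these 4 chains. Fitted across all genes, limma can reach lower values, and its adjusted p is the one given for each chain below.

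Among the fibrillar chains, COL1A1 (ENSG00000108821, GRCh38 chromosome 17 from 50184101 to 50201632) had 7.66, 8.42 and 9.96 FPKM in control against 28.4, 21.9 and 23.0 FPKM after depletion. Every OFD1-depleted value was above every control value, by more than the spread within either group. The mean rose from 8.68 ± 1.17 to 24.4 ± 3.51 FPKM (SD, n = 3), with a log2 fold change of 1.48 (standard error 0.152, limma adjusted p = 9.4e-05). COL1A1 made up 1.69% of the collagen FPKM in control and 4.0% after depletion. Its usual partner COL1A2, which forms type I collagen with COL1A1 chains, was nearly absent. It was listed between 0 and 0.115 FPKM in the 6 samples.

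COL5A2, a chain of the type V collagen found inside type I fibrils, had 42.7, 39.0 and 46.8 FPKM in control against 63.6, 47.9 and 59.9 FPKM after depletion. The groups were separate, with OFD1-depleted replicate 2 close to the highest control. The log2 fold change of 0.41 (standard error 0.143) did not pass (limma adjusted p = 0.0752). Without OFD1-depleted replicate 2 it passed (adjusted p = 0.00969), while calls higher over all genes went from 610 to 1097. Its partner COL5A1 was much lower, at 0.0420, 0 and 0.0506 FPKM in control against 0.177, 0.132 and 0.316 FPKM after depletion. These groups did not overlap, but the level was under the 1 FPKM needed for the test. COL3A1, the chain of type III collagen, stayed between 0.130 and 0.292 FPKM, and COL2A1, the cartilage chain, was at 0 in every sample.

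The 6 type IV chains, which build basement membranes, lie in 3 head-to-head pairs in the genome, each pair transcribed away from a shared stretch between the genes. The stretches are shown because the 2 genes of a pair can be compared within each sample, which was done for all pairs but COL4A4 and COL4A3. They are on the plus strand of GRCh38, from the RefSeq promoter table (GRCh38.p14). The capitals mark CCAAT and GGGCGG on either strand, so ATTGG and CCGCCC are marked too. The gene models of COL4A1 and COL4A2 overlap in the deposited table, so 100 of the 126 bases between their RefSeq starts are given, up to the first exon in GENCODE, chr13:110307158-110307257. For COL4A4 and COL4A3, the 170 bases between the genes in the deposited table are given, chr2:227164454-227164623, while their RefSeq starts lie 418 bases apart. For COL4A6 and COL4A5, the 250 bases next to COL4A5 are given, chrX:108439588-108439837, out of 340 between the genes in that table.
COL4A1 and COL4A2: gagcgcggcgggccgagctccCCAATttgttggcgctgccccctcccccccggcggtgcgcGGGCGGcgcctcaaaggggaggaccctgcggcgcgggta
COL4A4 and COL4A3: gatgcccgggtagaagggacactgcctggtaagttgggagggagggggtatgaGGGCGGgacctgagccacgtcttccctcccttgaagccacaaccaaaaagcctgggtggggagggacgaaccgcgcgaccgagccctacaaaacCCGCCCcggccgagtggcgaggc
COL4A6 and COL4A5: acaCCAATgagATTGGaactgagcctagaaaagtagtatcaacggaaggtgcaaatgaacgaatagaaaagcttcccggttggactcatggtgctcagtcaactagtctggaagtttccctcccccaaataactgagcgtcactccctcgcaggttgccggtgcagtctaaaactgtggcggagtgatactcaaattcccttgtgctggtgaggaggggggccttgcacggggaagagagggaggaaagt
The first stretch held 1 CCAAT and 1 GGGCGG match and was 78.0% G and C, the second held 2 GGGCGG matches and was 65.9% G and C, and the third held 2 CCAAT matches and was 51.2% G and C. None of the 3 held TATAAA on either strand. In windows from 250 bases before to 50 after a gene's start, CCAAT stood in 34.6% of all 35116 windows, GGGCGG in 45.0% and TATAAA in 11.5%. Counted by gene symbol, as the chains are, 39.7% of 27305 symbols had a window with CCAAT, 48.3% one with GGGCGG and 13.99% one with TATAAA. Of the 14 chains tested, 11 had a window in that table, of which 3 held CCAAT, 7 held GGGCGG and 3 held TATAAA (COL13A1, COL18A1 and COL7A1). COL1A1, COL5A2 and COL8A1 had no entry. A match is a description of letters, not a site.

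COL4A2, the most abundant collagen, had 170.9, 127.5 and 198.3 FPKM in control against 209.6, 198.6 and 182.6 FPKM after depletion. COL4A1 had 75.7, 55.7 and 77.1 FPKM in control against 82.6, 67.4 and 76.8 FPKM after depletion. For both chains control replicate 2 was lowest and the groups overlapped. The log2 fold changes were 0.27 (standard error 0.166, limma adjusted p = 0.301) for COL4A2 and 0.13 (standard error 0.155, adjusted p = 0.612) for COL4A1. COL4A1 turned to -0.0203 without control replicate 2 and to -0.0156 with TPM scaling.

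Type IV collagen of most basement membranes takes 2 COL4A1 chains with each COL4A2 chain. In FPKM, the ratio of COL4A1 to COL4A2 was 0.443, 0.437 and 0.389 in control and 0.394, 0.339 and 0.421 in OFD1-depleted samples. The ratio lay below 1 in all 6 samples and overlapped between the groups (difference of -0.14 on the log2 scale, two-sided exact permutation p = 0.3, n = 3 per group). It is a ratio of transcript levels per length, and the 2 genes overlap by 1346 bases on opposite strands in the deposited table.

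COL4A5 had 13.97, 12.2 and 14.1 FPKM in control against 19.6, 13.6 and 19.2 FPKM after depletion, where replicate 2 fell within the control range. Its log2 fold change of 0.36 (standard error 0.161) did not pass (limma adjusted p = 0.151), and it passed without OFD1-depleted replicate 2 (adjusted p = 0.00969). Its neighbour COL4A6 was far lower, at 0.519 to 0.990 FPKM, and COL4A5 exceeded it 18.8 to 26.1 times in every sample, with overlapping groups. COL4A4 had 2.12 to 2.53 FPKM in control against 1.504 to 2.32 FPKM after depletion (log2 fold change -0.24, limma adjusted p = 0.498), and COL4A3 had 0.742 to 1.17 FPKM and then 0.669 to 1.42 FPKM (log2 fold change 0.18, adjusted p = 0.774). Both are chains of specialised membranes such as that of the kidney glomerulus.

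COL8A1, which forms a hexagonal lattice and is made by corneal and vascular endothelium among others, was second in level, with 132.7, 125.7 and 141.4 FPKM in control against 187.4, 140.4 and 181.7 FPKM after depletion. OFD1-depleted replicate 2 lay within the control range. The log2 fold change of 0.34 (standard error 0.144) did not pass (limma adjusted p = 0.134), and it passed without that replicate (adjusted p = 0.0107). COL8A2, the other type VIII chain, had 0.955, 0.927 and 0.995 FPKM in control against 0.607, 0.798 and 0.780 FPKM after depletion. These groups did not overlap, at a level under the filter, and COL8A1 was 135.6 to 142.2 times COL8A2 in control and 175.9 to 308.5 times in OFD1-depleted samples.

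COL13A1 (ENSG00000197467, chromosome 10 from 69801880 to 69964275) had 12.5, 10.4 and 15.1 FPKM in control against 6.30, 7.83 and 6.25 FPKM after depletion. All OFD1-depleted values lay below all control values. The mean fell from 12.6 ± 2.33 to 6.79 ± 0.899 FPKM (SD, n = 3), with a log2 fold change of -0.88 (standard error 0.166, limma adjusted p = 0.00428). The other transmembrane chains were scarce, and COL17A1, the hemidesmosome collagen of basal keratinocytes, lay between 0.183 and 0.402 FPKM.

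COL6A3 (ENSG00000163359, chromosome 2 from 237324003 to 237414207) had 2.84, 2.09 and 3.45 FPKM in control against 1.45, 0.833 and 1.38 FPKM after depletion, again with no overlap. The mean fell from 2.79 ± 0.680 to 1.22 ± 0.337 FPKM (SD, n = 3), with a log2 fold change of -1.14 (standard error 0.272, limma adjusted p = 0.0152). This call was lost without a filter on low genes (adjusted p = 0.102), without control replicate 1 (0.053) and without control replicate 3 (0.0822). Type VI collagen is assembled from COL6A1, COL6A2 and a longer chain such as COL6A3. COL6A1 lay at 0.826 to 1.10 FPKM in control against 0.470 to 0.828 FPKM after depletion, and COL6A2 was listed at 0 in all 6. The ratio of COL6A1 to COL6A3 was 0.318 to 0.395 in control and 0.427 to 0.571 in OFD1-depleted samples.

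**Figure D3:**
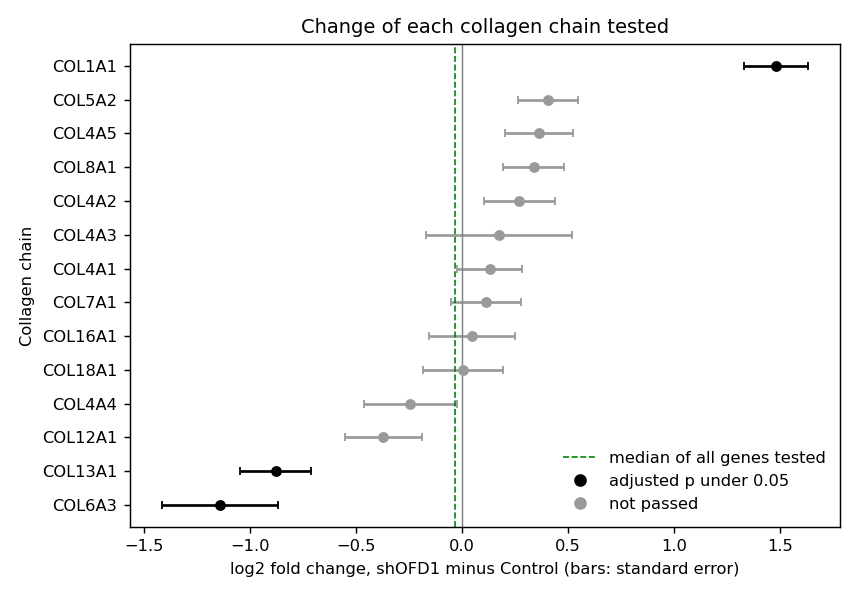
Log2 fold change of the 14 chains tested, OFD1-depleted (shOFD1) minus control, with its standard error as bars. Black points passed an adjusted p of 0.05 in limma and grey points did not, and the dashed line is the median of all genes tested. COL1A1 stands at 1.48, COL13A1 at -0.88 and COL6A3 at -1.14, and the other 11 chains lie between -0.37 and 0.41.

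COL12A1, a FACIT chain that coats fibrils, had 41.3, 29.9 and 40.6 FPKM in control against 33.7, 22.2 and 31.0 FPKM after depletion. Replicate 2 was lowest in both groups, which overlapped, and the log2 fold change of -0.37 (standard error 0.183) did not pass (limma adjusted p = 0.198). COL16A1, also of this class, lay between 2.07 and 2.90 FPKM in all samples (log2 fold change 0.05, adjusted p = 0.896). COL18A1, the basement membrane multiplexin from which endostatin is cut, had 13.0 to 22.5 FPKM in control against 15.2 to 18.9 FPKM after depletion (log2 fold change 0.01, adjusted p = 0.985). In the table it overlaps SLC19A1 (mean 9.54 FPKM) on the opposite strand. COL7A1, the anchoring fibril collagen, had 3.46 to 4.56 FPKM in control against 3.99 to 4.54 FPKM after depletion (log2 fold change 0.11, adjusted p = 0.690).

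Replicates were not alike across the chains. Control replicate 2 had the lowest of the 3 control values for 12 of the 14 chains, and OFD1-depleted replicate 2 the lowest of its group for 10 of 14. Control replicate 2 also had the lowest mitochondrial share, 8.66%.

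The other 22 chains with any signal had means under 1 FPKM, and 19 of them had means of at most 0.310 FPKM. Besides COL5A1 and COL8A2, COL11A1 and COL25A1 did not overlap between groups, both higher in OFD1-depleted samples but at most 0.0593 FPKM. That makes 4 of 22, where 10.2% of the 16476 genes in this range of levels did not overlap. With no filter, limma called none of the 22 (lowest adjusted p = 0.109), and 3 had an unadjusted p under 0.05, namely COL5A1, COL25A1 and COL11A1, where 6.28% of genes in this range did. The 8 chains at 0 in every sample were COL2A1, COL6A2, COL6A5, COL9A1, COL19A1, COL20A1, COL22A1 and COL26A1. An exact 0 in a table of this kind can also be a failed estimate.

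Chains become collagen only after many further steps, and 98 genes of that work were counted in 6 lists, of which 74 reached a mean of 1 FPKM. Of these, 8 fell (10.8%) and 5 rose (6.76%), against 11.9% and 5.07% of all genes tested, so these counts too are near the background. In the endoplasmic reticulum, prolines and lysines are hydroxylated and chaperones hold the chains. Of 23 enzymes and chaperones tested, 4 fell (17.4%, against 11.9% of all genes), none rose and 19 did not pass, with a median log2 fold change of -0.22 against -0.03 over all genes. P3H4, a partner of the lysyl hydroxylase that modifies collagen, fell from 28.2 ± 4.03 to 16.6 ± 1.72 FPKM (SD, n = 3, log2 fold change -0.76, limma adjusted p = 0.00498). P3H3, which works in the same complex, had a log2 change of -0.69 (limma adjusted p = 0.0124), the prolyl hydroxylase P3H1 of -0.55 (adjusted p = 0.0311) and the galactosyltransferase COLGALT1 of -0.42 (adjusted p = 0.045). Of these 4, P3H4 passed in all 18 alternative settings, P3H3 in 16, P3H1 in 11 and COLGALT1 in 10. P3H3 lost its call without control replicate 3 (adjusted p = 0.067) and with no filter (0.0812). P3H1 and COLGALT1 were lost without control replicate 1 (0.13 and 0.195), control replicate 3 (0.153 and 0.19), OFD1-depleted replicate 1 (0.0535 and 0.0598) or OFD1-depleted replicate 3 (0.0847 and 0.102). P4HB, a subunit of prolyl 4-hydroxylase and the most abundant of the list with the cyclophilin PPIB, had a log2 fold change of -0.43 (adjusted p = 0.0514, and 0.0389 or 0.0199 without replicate 2 of control or of the depleted group), and PPIB of 0.15 (adjusted p = 0.600).

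Folded procollagen leaves the endoplasmic reticulum in COPII carriers, and of 21 export genes 2 fell (9.52%, against 11.9% of all genes) and none rose (median -0.01). Without OFD1-depleted replicate 2, 3 export genes were called higher, while calls higher over all genes went from 610 to 1097. SAR1A, the GTPase that starts the COPII coat, had 30.4, 37.2 and 29.5 FPKM in control against 7.53, 8.96 and 8.15 FPKM after depletion. The groups were far apart, with a log2 difference of -1.96 (limma adjusted p = 1.4e-05), and the call held in all 18 alternatives. PREB, its exchange factor, fell by 0.56 on the log2 scale (adjusted p = 0.0411), a call that held in 10 of 18 alternatives. The most abundant genes of the list, SEC13 of the outer coat (-0.22, adjusted p = 0.375) and TFG, which gathers export carriers (0.22, adjusted p = 0.232), did not pass. PREB lost its call when any sample but OFD1-depleted replicate 2 was left out, with adjusted p from 0.0548 to 0.141.

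Outside the cell, propeptides are cut off and chains are cross-linked. Of 13 such genes, 7 reached a mean of 1 FPKM and were tested. Of these 7, 6 did not pass, none rose, and 1 (14.3%, against 11.9% of all genes called lower) fell. With no filter, 1 gene of the list was called higher and none lower. PCOLCE, which speeds removal of the C-propeptide, fell from 7.04 ± 1.19 to 4.04 ± 1.35 FPKM (SD, n = 3, log2 fold change -0.83, limma adjusted p = 0.0394, held in 10 of 18 alternatives). Without single samples it was lost in 4 cases, namely control replicates 1 (adjusted p = 0.111), 2 (0.0541) and 3 (0.139) and OFD1-depleted replicate 3 (0.103). The cross-linking enzymes LOXL1 (248.3 to 183.7 FPKM, log2 fold change -0.44, adjusted p = 0.065) and LOXL2 (-0.18, adjusted p = 0.493) did not pass, and LOXL1 passed without control replicate 2 (0.0481) and without OFD1-depleted replicate 2 (0.0133). Of 11 collagenase and uptake genes, 7 were tested, of which 1 rose and 1 fell (14.3% each, against 5.07% and 11.9% of all genes). CTSK, the collagen-cutting cathepsin K, rose from 66.1 ± 5.16 to 94.4 ± 3.67 FPKM (SD, n = 3, log2 fold change 0.52, adjusted p = 0.0145). MRC2, the receptor that takes up cut collagen, fell from 42.8 ± 10.9 to 24.1 ± 3.43 FPKM (SD, n = 3, log2 fold change -0.80, adjusted p = 0.0137). CTSK lost its call without control replicate 1 (adjusted p = 0.0786), control replicate 3 (0.0885) or OFD1-depleted replicate 1 (0.0527), and MRC2 without control replicate 3 (0.0652) or without a filter (0.110). The gelatinase MMP2 (log2 fold change 0.22, adjusted p = 0.361) and the membrane collagenase MMP14 (-0.41, adjusted p = 0.0721) were the most abundant and did not pass.

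None of the 7 collagen receptors tested passed in this fit, although 2 were called lower with array weights, and the integrin subunits ITGB1 and ITGA11 had log2 fold changes of 0.07 and 0.16 (limma adjusted p = 0.839 and 0.610). Of 19 genes for proteins that bind collagen fibrils, 9 reached a mean of 1 FPKM and were tested. Of these 9, 4 rose (44.4%, against 5.07% of all genes) and none fell. With 9 genes chosen with earlier results known, this share is a description. POSTN, the fibril-binding periostin, had 82.6, 76.6 and 76.9 FPKM in control against 233.2, 174.0 and 237.0 FPKM after depletion. No values overlapped, and the log2 difference was 1.43 (limma adjusted p = 9.0e-05). THBS1, thrombospondin 1, rose from 227.4 ± 29.3 to 471.5 ± 101.1 FPKM (SD, n = 3, log2 fold change 1.04, adjusted p = 0.00251). SPARC, a collagen-binding chaperone of the matrix, rose from 524.8 ± 49.6 to 777.0 ± 21.7 FPKM (SD, n = 3, log2 fold change 0.57, adjusted p = 0.0168), and DCN, the fibril proteoglycan decorin, from 0.869 ± 0.0997 to 1.87 ± 0.128 FPKM (SD, n = 3, log2 fold change 1.03, adjusted p = 0.015). POSTN held in all 18 alternatives, THBS1 in 17 of 18, DCN in 16 of 17 and SPARC in 13 of 18. DCN lost its call without OFD1-depleted replicate 1 (adjusted p = 0.0535) and THBS1 with no filter (0.0527). SPARC lost its call without control replicate 1 (adjusted p = 0.0624), control replicate 3 (0.0622) or OFD1-depleted replicate 1 (0.0682), under quantile normalization (0.137) and with no filter (0.120). FN1, fibronectin, had the highest level of the list, 1765 ± 383.0 FPKM in control against 1656 ± 396.8 FPKM after depletion (SD, n = 3), with a log2 fold change of -0.10 (adjusted p = 0.807).

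**Figure D4:**
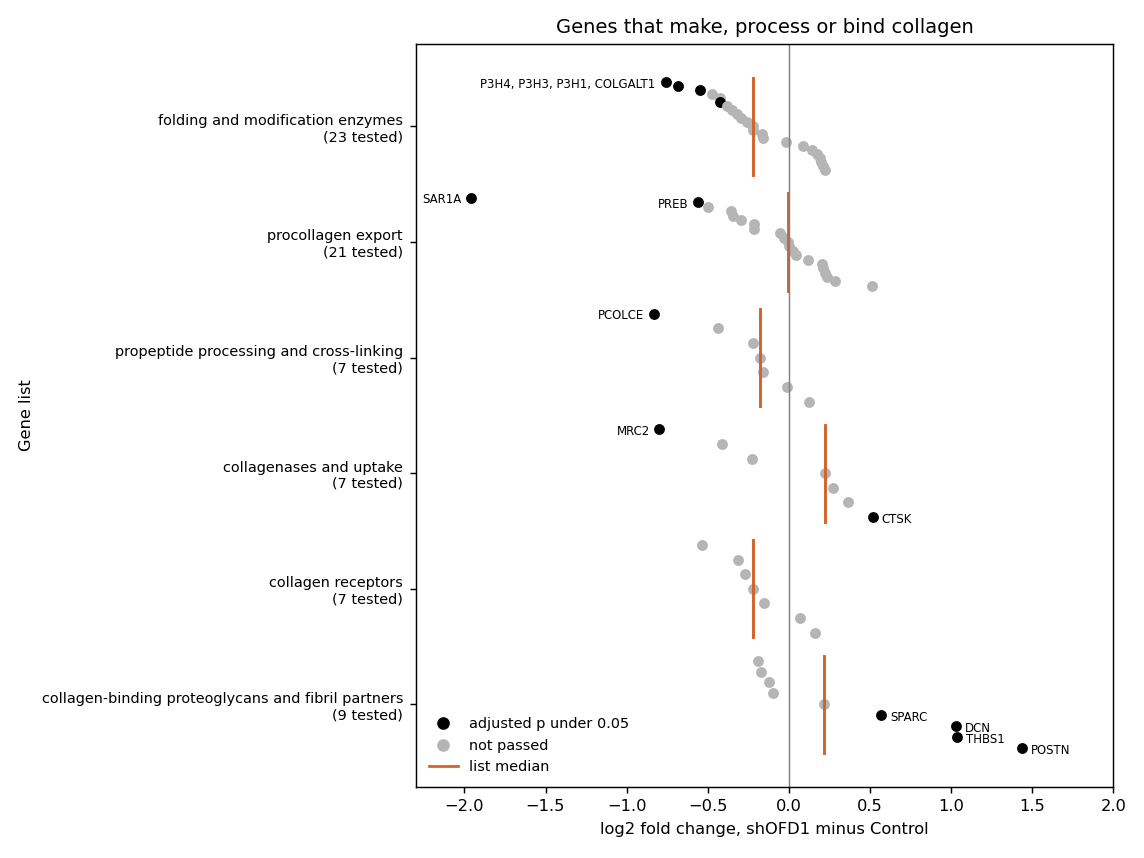
Log2 fold change (OFD1-depleted minus control) of the 74 genes tested in 6 lists of genes that make, move, cut or bind collagen, 1 point per gene, with list medians as orange lines. Black, named points passed an adjusted p of 0.05 in limma. SAR1A lies farthest to the left at -1.96 and POSTN farthest to the right at 1.43.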

How the data were processed

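RNA-seq of 3 control and 3 OFD1-depleted RPE1 samples was analysed, with groups and replicate numbers taken from the sample labels. By the submitters' processing notes and the methods, the authors aligned directional paired-end libraries with HISAT2 2.0.5 to GRCh38 and deposited StringTie values as FPKM per gene, so no read counts were used. The limma package (3.58.1, R 4.3.3, trend on mean) was fitted to log2(FPKM + 0.1) for the 12025 genes averaging 1 FPKM or more. Fold changes are on that scale, which understates low genes. Two-sided p-values received Benjamini-Hochberg adjustment over all genes tested, with a threshold of 0.05. The fit was tested on simulated data. The members and gene lists were chosen with earlier results of these data known. Every chain with a mean of at least 1 FPKM was named, with OFD1 and, per list, up to 5 genes with the smallest p past the threshold and the 2 most abundant. Values of single genes and the ratio of COL4A1 to COL4A2 were compared by exact permutation. The other ratios given were not tested, because a chain of each pair was under the filter. Alternatives were other pseudocounts, filters, scalings and limma options, the replicate block, protein-coding genes alone and each sample left out. A rescaling to equal totals that leaves out mitochondrially encoded genes was chosen after seeing the data. Promoter windows were matched by symbol for 32 of the 44 chains. Python 3.11.15 with numpy 2.4.6, pandas 2.3.3, scipy 1.17.1 and matplotlib drew figures and tables.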

Additional observations from a re-analysis of the deposited data

How the results depend on the processing

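COL1A1 and COL13A1 kept their direction and passed the threshold in all 18 alternatives, and COL6A3 passed in 14 of 17. The count of chains lower was 1 instead of 2 with no filter and with a filter at 5 FPKM, and 1 to 2 when single samples were left out (1 without control replicate 1 or 3). The count higher was 2 instead of 1 with median-of-ratios scaling and with the replicate block, 4 with array weights, and 1 to 4 when single samples were left out (4 without OFD1-depleted replicate 2). COL5A2 was added in each of these, and COL8A1 and COL4A5 with array weights and without that sample. Calls higher over all genes also rose from 610 in these settings. They came to 854 with median-of-ratios scaling, 762 with the replicate block, 1693 with array weights and 1097 without OFD1-depleted replicate 2. COL5A2 had an adjusted p of 0.0494 with the replicate block.

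Directions turned for genes that never passed. With TPM scaling, log2 fold changes became -0.0156 for COL4A1, -0.139 for COL18A1, -0.0301 for COL7A1, -0.0911 for COL16A1, -0.0815 for ITGB1 and -0.00203 for PPIB. Quantile normalization gave -0.195 for ITGB1, and array weights -0.110 for COL18A1 and -0.0474 for PPIB. Equal totals without mitochondrially encoded genes gave -0.0516 for COL18A1 and -0.00666 for COL16A1. With single samples left out, COL4A1 ranged from -0.0203 to 0.21, COL18A1 from -0.19 to 0.20, COL16A1 from -0.0598 to 0.17, FN1 from -0.28 to 0.12, ITGA11 from -0.0520 to 0.31, ITGB1 from -0.0454 to 0.27 and PPIB from -0.0317 to 0.25. The median shift of a gene's log2 fold change was -0.15 under TPM scaling and 0.10 under quantile normalization. TPM scaling divides each sample by its summed FPKM, which averaged 412083 in control and 457036 after depletion. The main fit was not scaled for that difference. What made the totals differ, and the causes of the other shifts, were not tested.

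Over all genes, calls lower ranged from 823 to 2263 around 1429, and calls higher from 252 to 1693 around 610, with 260 and 823 without a filter and 1693 and 2263 with array weights. Among the lists, enzymes and chaperones lower ranged from 1 to 10, export genes lower from 1 to 6 and higher from 0 to 3, receptors lower from 0 to 2 (1 with the replicate block), and fibril-binding proteins higher from 2 to 4. Samples with the same replicate number correlated at 0.0579, 0.0481 and 0.011 in their deviations from the group means. Pairs with different numbers correlated at -0.0799 to 0.0503, and not every sample correlated best with its own number. With 3 samples per group, these values cannot decide whether samples of the same number were paired. The replicate block gave 1534 genes lower and 762 higher, and LOXL1 (0.0416), MMP14 (0.0395) and P4HB (0.0316) passed with it. The table holds no read counts and the depth estimate is approximate, so no counting interval was given, and 3 samples per group limit the precision.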
